A study of Rattus norvegicus with 6 samples.

Results

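Genes for the ligands, a receptor and the feedback regulators of transforming growth factor beta (TGF-beta) signaling were followed in oligodendrocyte progenitor cells (OPCs) of the rat, from which myelin-forming cells develop, after exposure to fibrinogen. The 10 genes of the group were fixed by name, and 7 of them were analysed, each through the probe set with the highest mean that the array's annotation pairs with that gene alone. These were the ligand genes Tgfb1, Tgfb2 and Tgfb3, the receptor gene Tgfbr1, the feedback and repressor genes Pmepa1 and Tgif1, and the matrix gene Tgfbi, out of 13949 genes measured in all. The other members, Tgfbr2, Ski and Skil, were not analysed here.

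The study used primary rat OPCs, taken from pups in the first days after birth and left to recover for 2 days in DMEM-based proliferation medium, which held the growth factors PDGF and NT3 and the supplements N2 and B27. In the fibrinogen group 3 samples were exposed to fibrinogen for 12 h, and in the control group 3 samples were left unstimulated. Fibrinogen is the clotting protein of blood plasma, which reaches nervous tissue where vessels leak. The title of the series is about BMP signaling, the sister branch of the pathway described here. Values are log2 levels from 6 Affymetrix arrays, 1 per sample, and 1 unit is a doubling.

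TGF-beta ligands are secreted in a latent form, bound to their own propeptide, and must be released before they can bind. The active ligand joins a type II and a type I receptor (Tgfbr2 and Tgfbr1), and the type I receptor phosphorylates Smad2 and Smad3, which enter the nucleus with Smad4. Among the genes that this complex switches on are its own inhibitors. Pmepa1 is one of them, a membrane protein that keeps Smad2 and Smad3 from the receptor, while Tgif1, Ski and Skil are co-repressors that act on Smads in the nucleus. In the developing nervous system TGF-beta is known to influence the proliferation and maturation of OPCs.

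1 of the 7 genes passed the test: Pmepa1 rose 1.79-fold in fibrinogen-exposed OPCs (95% interval 1.58 to 2.02). The other 6 did not pass, and their log2 changes lay between -0.19 and 0.29. No member was called lower (0 in limma, although 1, Tgfbr1, was lower by its unadjusted p of 0.0423). Pmepa1 and Tgif1 were higher by the unadjusted limma threshold of 0.05. Of all genes, 8.12% were higher and 7.46% lower by that threshold. Data were also simulated with the spreads of all 13949 genes, and 50 genes drawn at random were changed by each size. The test called 16% of log2 changes of 0.3 and 74% of those of 0.6. These rates hold for genes drawn from the whole array and are not those of any single member. A gene that did not pass may therefore still have changed. A gene was called with limma, a linear model fitted to all 13949 genes, at a Benjamini-Hochberg adjusted p under 0.05, and over all genes 432 genes (3.1%) were called, 252 higher (1.81%) and 180 lower (1.29%). The median log2 change was -0.02 over the 7 members and -0.0033 over all genes. With so few members the count of 1 was read only gene by gene.

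**Figure D1:**
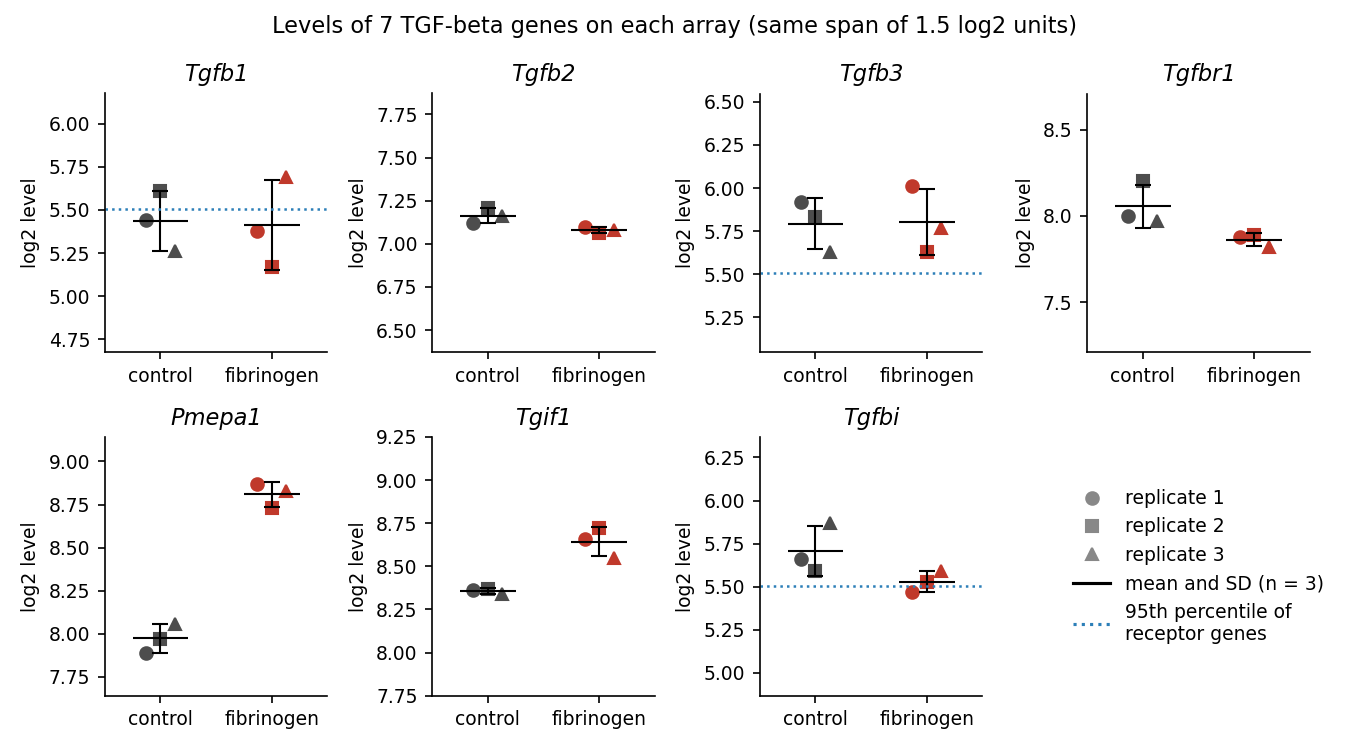
Log2 level of each of the 7 genes (y axis, every panel spanning 1.5 log2 units) on the control and fibrinogen arrays (x axis). Symbols are single arrays, the line and bar are the mean and SD of 3 arrays, and the dotted line is the 95th percentile of the olfactory and vomeronasal receptor genes. The Pmepa1 points of both groups lie far apart, from 7.89 to 8.06 in controls and from 8.73 to 8.87 with fibrinogen.

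Pmepa1 had log2 levels of 7.89, 7.97 and 8.06 on the 3 control arrays and of 8.87, 8.73 and 8.83 on the 3 fibrinogen arrays. The groups did not overlap: the lowest fibrinogen value stood 0.67 above the highest control value, while the values within a group spanned 0.17 in controls and 0.14 with fibrinogen. The mean went from 7.97 ± 0.09 to 8.81 ± 0.07 (SD, n = 3 each), a log2 change of 0.84 ± 0.08 (SE) with an adjusted p of 0.00142 in limma. Among the 252 genes called higher, 38 had a larger log2 change than Pmepa1, and 19 genes of the array had a lower adjusted p. Its log2 change lay between 0.795 and 0.88 when any 1 array was left out, and it passed the test each time, with adjusted p-values from 0.00347 to 0.0127 in limma.

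**Figure D2:**
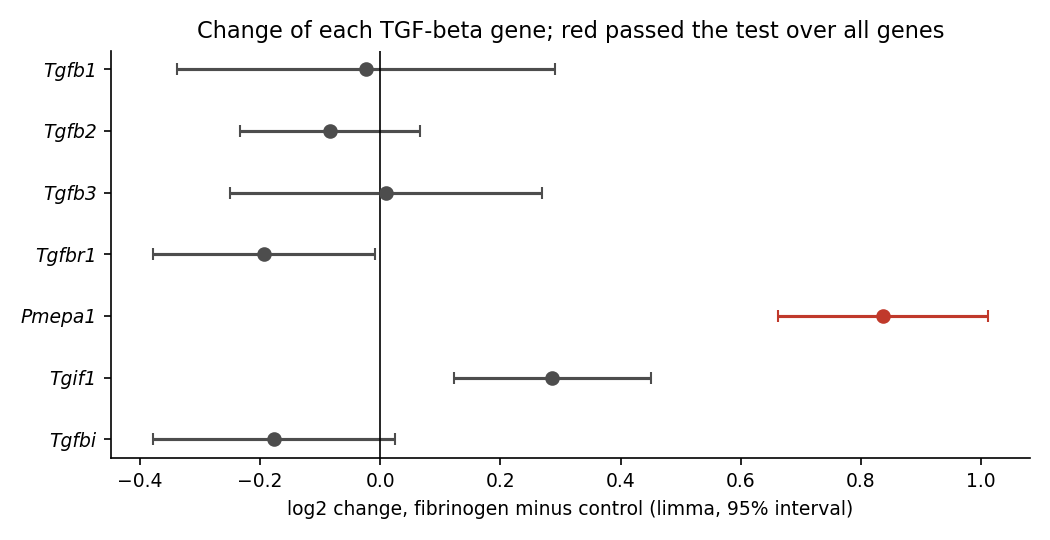
Log2 change, fibrinogen minus control (x axis), of each of the 7 genes (y axis), with the 95% interval of the limma fit. Only the interval of Pmepa1, from 0.66 to 1.01, belongs to a gene that passed over all genes (red), and the intervals of Tgif1 and Tgfbr1 also leave out 0 before any adjustment.

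The sequence around the start of Pmepa1 is shown because it is the member that rose, next to those of Nedd9, a gene induced by TGF-beta that also rose, and of Tgfbr1, the receptor gene, which did not pass. Each window runs from 250 bases before to 50 after the gene's start on the gene's own strand (RefSeq, assembly GRCr8). Of the 7 measured members 6 had one, all but Tgif1. Capitals mark the letters searched for on both strands: the Smad box GTCT, which reads AGAC on the other strand, the sequence GGCGCC, and the AP-1 site TGANTCA.
Pmepa1, chr3:182478600-182478899, minus strand: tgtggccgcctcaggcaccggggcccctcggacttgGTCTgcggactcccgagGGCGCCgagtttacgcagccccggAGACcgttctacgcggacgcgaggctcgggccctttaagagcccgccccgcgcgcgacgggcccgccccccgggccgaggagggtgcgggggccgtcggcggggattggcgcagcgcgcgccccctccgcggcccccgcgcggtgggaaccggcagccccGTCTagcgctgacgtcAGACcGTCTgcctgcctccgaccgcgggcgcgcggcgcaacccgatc
Nedd9, chr17:23623711-23624010, plus strand: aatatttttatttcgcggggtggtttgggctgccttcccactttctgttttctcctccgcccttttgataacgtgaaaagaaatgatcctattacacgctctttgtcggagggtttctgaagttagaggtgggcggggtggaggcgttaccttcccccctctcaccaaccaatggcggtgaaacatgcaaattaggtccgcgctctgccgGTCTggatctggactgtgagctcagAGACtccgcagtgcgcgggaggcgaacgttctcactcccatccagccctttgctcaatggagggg
Tgfbr1, chr5:66449148-66449447, plus strand: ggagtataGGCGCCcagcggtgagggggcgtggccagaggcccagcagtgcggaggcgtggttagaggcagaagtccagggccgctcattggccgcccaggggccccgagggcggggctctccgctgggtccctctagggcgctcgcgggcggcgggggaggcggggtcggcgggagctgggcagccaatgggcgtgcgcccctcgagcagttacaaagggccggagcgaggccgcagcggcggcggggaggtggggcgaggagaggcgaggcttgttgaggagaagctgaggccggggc
The Pmepa1 window held 5 Smad boxes, with the start base counted as +1 at -214, -173, -13, +4 and +9, of which the last pair is separated by a single base. It also held 1 GGCGCC and 0 AP-1 sites. At least 5 Smad boxes were present in 8.79% of the 33465 windows of this length in the RefSeq table, while at least 1 was present in 88.8%, so a single box is common. Nedd9 had 2 Smad boxes and Tgfbr1 had 0 Smad boxes and 1 GGCGCC. Of the other pathway genes that rose, Itgb5 had 1 Smad box and Nedd4l had 0, while Bgn had no window. The genes that rose and had a window thus did not share a high number. Tgfb1 and Tgfb2 had 2 Smad boxes each, and Tgfb3 and Tgfbi had 1 each. GGCGCC was present in 11% of all windows and the AP-1 site in 7.33%. The palindrome GTCTAGAC, whose ends are Smad boxes and were counted as such too, was in 0.197% of all windows and in 0 of those of the members. The Pmepa1 window is rich in G and C (78%, against a median of 51.7% over all windows). Such matches describe letters and were not tested as binding sites.

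Tgif1, a homeodomain protein that recruits repressors to Smad2, was the other member whose fibrinogen arrays all lay above the controls. It had log2 levels of 8.36, 8.37 and 8.34 on the control arrays and of 8.66, 8.72 and 8.55 on the fibrinogen arrays. The controls were almost level with each other, and the lowest fibrinogen value was 0.18 above them. The log2 change of 0.29 ± 0.07 (SE, 95% interval 0.12 to 0.45) did not pass over all genes, with an adjusted p of 0.0769 in limma. Tgif1 passed once dim genes were left out, with an adjusted p of 0.0432 without the genes under the 30th percentile of level (limma). The adjusted p was 0.0441 without those under the 95th percentile of the olfactory and vomeronasal receptor genes (limma). Tgif1 did not pass in any fit that left out 1 array (adjusted p from 0.0874 to 0.239, limma).

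The receptor gene Tgfbr1, which encodes the type I receptor kinase, had log2 levels of 8.0, 8.20 and 7.97 in controls and of 7.88, 7.89 and 7.82 with fibrinogen. All 3 fibrinogen values were below the lowest control, by at least 0.08, and control 2 was the highest array. The log2 change was -0.19 ± 0.08 (SE), with a 95% interval of -0.38 to -0.01 and an adjusted p of 0.294 in limma, which did not pass. Without control 2 the log2 change was -0.12.

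Tgfb2, a ligand gene, had log2 levels of 7.12, 7.21 and 7.16 in controls and of 7.10, 7.06 and 7.08 with fibrinogen. Here too the groups did not overlap, but by only 0.02, and the log2 change of -0.08 ± 0.07 (SE, 95% interval -0.23 to 0.07) did not pass (adjusted p = 0.626, limma). In all, 2 of the 7 members had all fibrinogen arrays above all controls and 2 had them below, where 10.7% and 10.6% of all genes did so.

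Tgfb1, the ligand gene best known for immune and wound responses, had log2 levels of 5.44, 5.61 and 5.26 in controls and of 5.38, 5.17 and 5.69 with fibrinogen. Its groups overlapped throughout, and its mean level of 5.42 over the 6 arrays was under 5.51, the 95th percentile of 956 olfactory and vomeronasal receptor genes, which served as a measure of background. The log2 change was -0.02 ± 0.14 (SE), and the 95% interval of -0.34 to 0.29 is the widest of the 7 members. Without fibrinogen 2 or control 2 the log2 change was 0.10 and 0.06, so its sign was not settled.

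Tgfb3, the third ligand gene, had log2 levels of 5.92, 5.83 and 5.63 in controls and of 6.01, 5.63 and 5.77 with fibrinogen. The groups overlapped, and the log2 change was 0.01 ± 0.11 (SE, 95% interval -0.25 to 0.27), with a sign that turned under median centring of the arrays. Tgfbi, a matrix protein secreted by many cells in response to TGF-beta, had log2 levels of 5.66, 5.59 and 5.87 in controls and of 5.47, 5.53 and 5.59 with fibrinogen. The highest fibrinogen value equalled the lowest control value, and the log2 change of -0.18 ± 0.09 (SE, 95% interval -0.38 to 0.02) did not pass (adjusted p = 0.392, limma). Without control 3 the log2 change of Tgfbi was -0.095. Tgfb3 and Tgfbi were only slightly above the receptor percentile, at mean levels of 5.80 and 5.62.

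**Figure D3:**
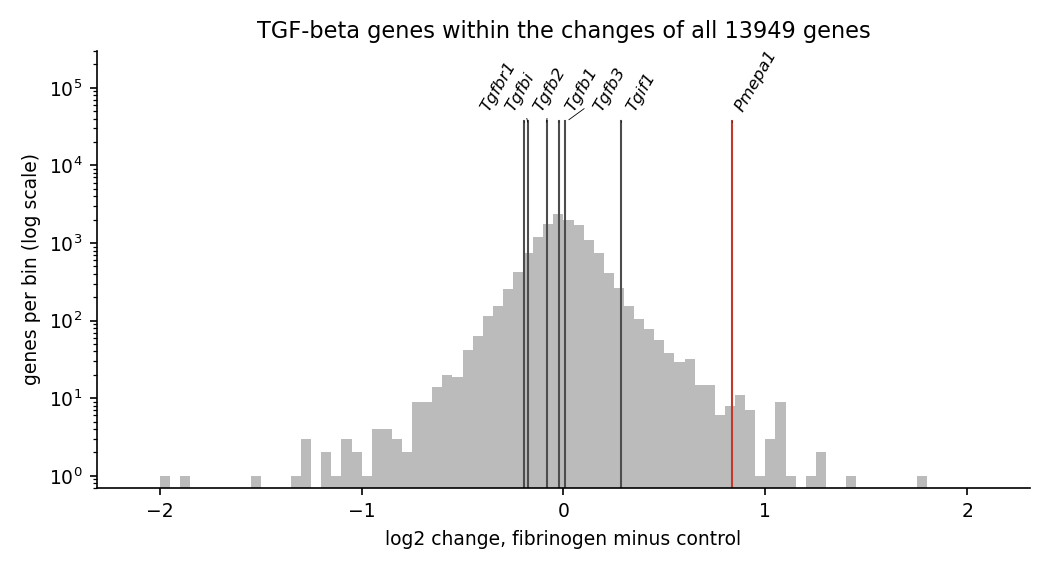
Number of genes (y axis, log scale) by log2 change, fibrinogen minus control (x axis), for all 13949 genes. Vertical lines mark the 7 TGF-beta genes. Pmepa1 (red) lies in the upper tail, and the other 6 lie between -0.19 and 0.29. Of these, Tgif1 was at rank 607 from the highest rise and Tgfbr1 at rank 1278 from the largest fall.

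The 5 genes whose profile over the 6 arrays was closest to that of Pmepa1 were found by the root mean square difference of log2 values after each gene's control mean was subtracted, over all 13949 genes. They were Faim2, an inhibitor of Fas-induced cell death (a difference of 0.0564), Id2, an inhibitor of differentiation induced by BMP (0.0587), the brain proteoglycan Ncan (0.0687), Socs2, a brake on cytokine receptors (0.0756), and the membrane protein gene Emp1 (0.0848). All 5 rose in limma, with log2 changes of 0.85, 0.89, 0.89, 0.85 and 0.89. Because the measure uses the size of the change, it picks genes with a rise of this size, and the likeness is a description.

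**Figure D4:**
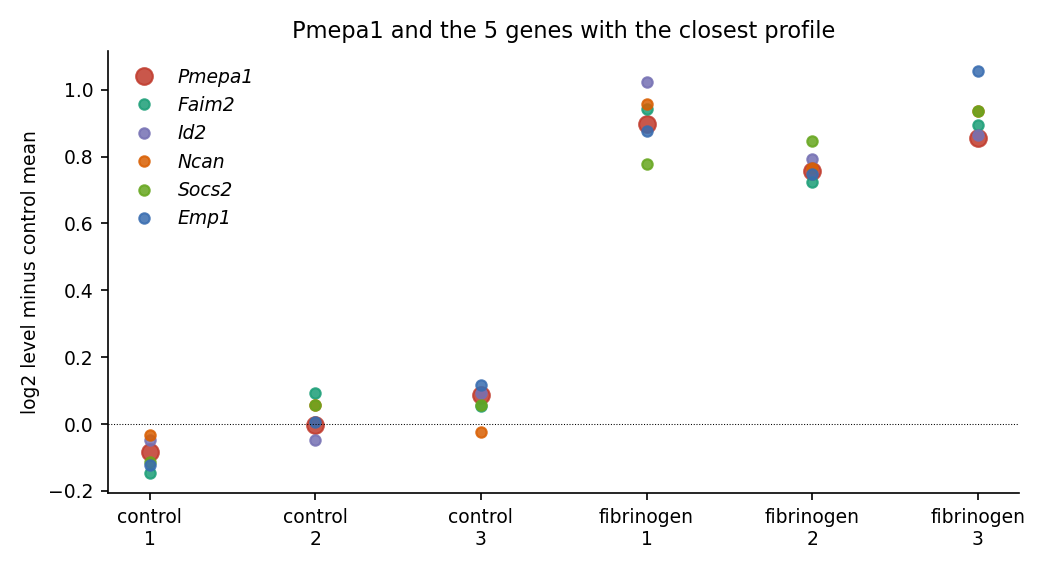
Log2 level minus the gene's control mean (y axis) on each of the 6 arrays (x axis) for Pmepa1 (large red points) and the 5 genes with the closest profile. On fibrinogen 2 Pmepa1 had its lowest fibrinogen value, 8.73 on the log2 scale.

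Other genes of the pathway were followed in 5 lists of 108 distinct genes, of which 91 were measured. Of these 4 rose and 0 fell in limma, where 1.81% and 1.29% of all genes did. They were Bgn, Nedd9, Itgb5 and Nedd4l.

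Of 20 genes that store, bind or release latent TGF-beta, 2 rose, 0 fell and 18 did not pass (before adjustment, 4 had a p under 0.05 upward and 1 downward, against 8.12% and 7.46% of all genes), with a median log2 change of 0.05. Bgn, a small proteoglycan that binds TGF-beta, had log2 levels of 6.46, 6.5 and 6.61 in controls and of 7.82, 7.77 and 7.75 with fibrinogen, and a log2 change of 1.26 ± 0.07 (SE, adjusted p = 0.000149, limma). The groups were more than a log2 unit apart. Itgb5, an integrin chain that pairs with alpha v to bind latent TGF-beta, had log2 levels of 6.40, 6.23 and 6.29 in controls and of 6.58, 6.87 and 6.72 with fibrinogen, and a log2 change of 0.42 ± 0.09 (SE, adjusted p = 0.0490, limma). The call for Itgb5 held in 1 of the 6 fits that left out an array, that without fibrinogen 1, and its adjusted p otherwise ran up to 0.196. It also ended under median centring of the arrays (adjusted p = 0.0563, limma).

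Of 24 Smads and Smad regulators 1 rose, 0 fell and 23 did not pass (before adjustment, 3 had a p under 0.05 upward and 1 downward, beside the same shares of all genes), with a median log2 change of 0.05. Nedd4l, a ubiquitin ligase that marks active Smad2 and Smad3 for destruction, had log2 levels of 8.12, 8.16 and 8.15 in controls and of 8.48, 8.66 and 8.51 with fibrinogen, and a log2 change of 0.41 ± 0.07 (SE, adjusted p = 0.0244, limma). Its call ended when any single control was left out (adjusted p = 0.103, 0.101 and 0.103 for control 1, 2 and 3) and also without fibrinogen 3 (0.0565, limma). The signal transducers Smad2, Smad3 and Smad4, which were picked out after their values were seen, had log2 changes of 0.10, 0.05 and 0.0033 and did not pass in limma (adjusted p = 0.678, 0.832 and 0.990). Smad7, the inhibitory Smad of the pathway and also picked out later, had log2 levels of 6.23, 6.30 and 6.19 in controls and of 6.44, 6.57 and 6.62 with fibrinogen. Those groups did not overlap. The log2 change of 0.30 ± 0.08 (SE) did not pass over all genes with an adjusted p of 0.0769 in limma, and Smad7 passed where dim genes were left out (adjusted p = 0.0445 and 0.0453, limma), as Tgif1 did. Smurf2, a ligase that partners Smad7 and was likewise picked out later, was not called (log2 change -0.32 ± 0.09, SE, adjusted p = 0.116, limma).

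**Figure D5:**
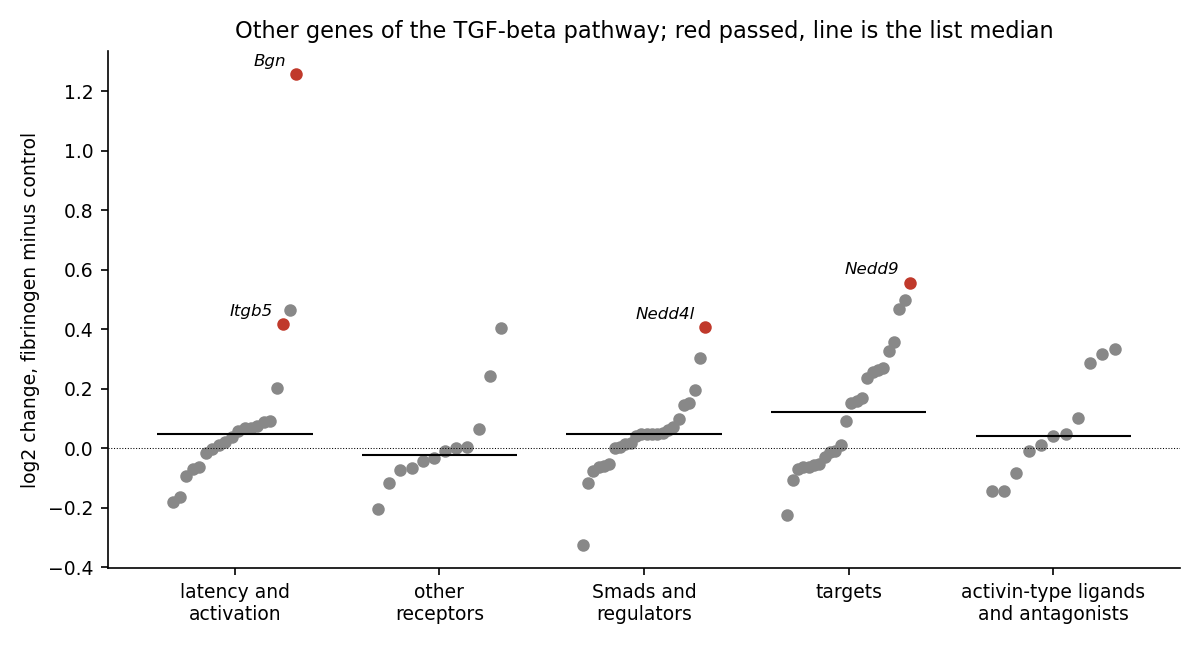
Log2 change, fibrinogen minus control (y axis), of every measured gene in the 5 lists of the TGF-beta pathway (x axis). Each point is a gene, red points passed in limma, and the horizontal line is the median of the list. The medians lie between -0.02 and 0.12, and the 4 genes that passed are all higher with fibrinogen.

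Of 24 genes that TGF-beta commonly induces 1 rose, 0 fell and 23 did not pass (before adjustment, 8 had a p under 0.05 upward and 0 downward, beside the same 8.12% and 7.46% of all genes), and the median log2 change was 0.12. Nedd9, a scaffold protein of cell adhesion, had log2 levels of 7.70, 7.64 and 7.54 in controls and of 8.09, 8.20 and 8.26 with fibrinogen, and a log2 change of 0.56 ± 0.08 (SE, adjusted p = 0.00782, limma). It kept its call without each array in turn (adjusted p up to 0.0482, limma). Without fibrinogen 2, Timp1 and Cdkn1a passed beside Nedd9, and without control 1 Bhlhe40 did, which gave 3 and 2 genes in place of 1.

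None of 12 other receptors and receptor regulators passed, and the median log2 change was -0.02. Before adjustment, 2 had a limma p under 0.05 upward and 1 downward, against 8.12% and 7.46% of all genes. The members with the largest log2 changes were the BMP receptor gene Bmpr2 (0.40 ± 0.10, SE) and the activin and BMP receptor gene Acvr1 (0.24 ± 0.10), neither past the threshold (adjusted p = 0.0754 and 0.30, limma). Bmpr2 passed without fibrinogen 1 (adjusted p = 0.0486, limma), and the log2 change of Acvr1 was 0.14 without fibrinogen 2. None of 11 genes for related ligands and their antagonists passed either, with a median of 0.04. Of these, 2 had an unadjusted limma p under 0.05 upward and 0 downward, beside the same shares of all genes. The largest log2 changes there were those of the activin antagonist Fst (0.33 ± 0.16, SE) and the stress-induced ligand Gdf15 (0.32 ± 0.08), neither of which passed (adjusted p = 0.381 and 0.0754, limma). That of Fst was 0.21 without control 3 and 0.19 without fibrinogen 2, while Gdf15 had 0.265 to 0.375 in the fits without 1 array.

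Markers of cell types were followed in the cultures. All 10 measured OPC markers were above the receptor percentile, among them Pdgfra, Cspg4, Olig1 and Sox10. So were 71.3% of all genes, and 8 of 9 astrocyte, 6 of 7 oligodendrocyte and 7 of 8 neuron markers. This level alone therefore does not tell the cell types apart. Of the OPC markers 4 fell in limma: Gpr17, Neu4, Pdgfra and Cspg4. The other 6 did not pass. Among these, Olig1 and Sox10 had log2 changes of -0.07 and -0.05 with overlapping groups (adjusted p = 0.732 and 0.835, limma). Before adjustment, 5 of the 10 had a p under 0.05 downward and 1 upward, against 7.46% and 8.12% of all genes. The latter was C1ql1, whose fibrinogen arrays all lay above the controls (log2 change 0.52, adjusted p = 0.0923, limma, not passing). Of the 6 fits without 1 array, Neu4 passed in 6, Gpr17 in 4, Pdgfra in 1 and Cspg4 in 0. The mean log2 level of all 10 OPC markers went from between 10.18 and 10.19 on the control arrays to between 9.97 and 10.05 on the fibrinogen arrays. Of 9 astrocyte markers 2 rose, Gfap by 1.24 and Slc1a2 by 0.65 on the log2 scale, and the mean level of that list went from between 7.64 and 7.73 to between 7.97 and 8.07. Before adjustment, 6 of the 9 had a limma p under 0.05 upward and 0 downward, against 8.12% and 7.46% of all genes. A positive log2 change was found for 8 of them. Of 7 oligodendrocyte markers 1 passed, Cnp, with a log2 change of -0.48, a call that ended without control 2 or 3 (adjusted p = 0.0785 and 0.0736, limma). Of the 7, 5 had a positive log2 change and the median was 0.08. Cldn11, picked out after its values were seen, had a log2 change of 0.38 without overlap of the groups, which did not pass (adjusted p = 0.169, limma). The mean level of the oligodendrocyte list ran from 7.99 to 8.08 in controls and from 8.03 to 8.10 with fibrinogen. Of 15 microglia and macrophage markers, cells that are rich in Tgfb1 and Tgfbr1, 0 passed (unadjusted limma p under 0.05 for 0 upward and 1 downward), 9 lay under the receptor percentile (Aif1, Csf1r, Itgam, Ptprc, C1qa, Tyrobp, Trem2, Ly86 and Cd53), and their mean level ran from 5.30 to 5.38 in controls and from 5.22 to 5.32 with fibrinogen. No endothelial, pericyte and fibroblast or neuron marker passed (0 of 6, 0 of 7 and 0 of 8, with 0, 1 and 1 at an unadjusted p under 0.05 in limma), and 4, 4 and 1 of them lay under the receptor percentile. The part of these marker shifts in the values of Pmepa1 and the other members was not tested, and in bulk samples fewer cells of a type and less RNA per cell cannot be told apart.

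Fibrinogen 2 was the array farthest from its group, with an SD of all genes about the group mean of 0.146, against 0.0862 to 0.114 on the other 5 arrays. The mean log2 level of the 8 measured neuron markers was 7.80 on fibrinogen 2 and 7.54 to 7.59 on the other 5. These markers did not all move the same way. The synaptic vesicle gene Syt1, picked out after its values were seen, was at 8.58 on fibrinogen 2 and at 7.60 to 7.65 on the other arrays. Snap25, Rbfox3, Map2 and Nefl were also highest there, at 7.95, 6.93, 10.16 and 6.08. Tubb3, Stmn2 and Gad1 were lowest there, at 9.78, 8.16 and 4.77. Without fibrinogen 2 the log2 change of Pmepa1 was 0.88 (adjusted p = 0.00347, limma), that of Tgif1 0.25 and that of Tgfbr1 -0.21. Pmepa1 was then the only member to pass. Leaving out 1 array changed the count of all genes called higher to between 96 and 263 and of those called lower to between 55 and 173. The number of arrays limits the precision of every value.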

How the data were processed

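Per the labels, RNA of 3 unstimulated and 3 fibrinogen-exposed OPC samples was cleaned with RNeasy and DNase, and cDNA made by NuGEN's Ovation Pico WTA kit was biotin-labelled. The deposited log2 values, 1 per probe set and array, were taken as normalized by the authors with RMA, a tool that the submitters' processing notes list beside limma, with neither version nor role. RMA can compress differences of dim genes. The log2 scale was inferred from the deposited values, centring is not stated, and the fibrinogen dose and genome build were not given in the sources used here.

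Of 26312 probe sets, 1206 were blank and 14700 of the rest had 1 gene symbol, which gave 13949 genes (the probe set with the highest mean per gene; each member had 1). The test was limma's (version 3.58.1 under R 4.3.3), lmFit followed by eBayes, two-sided and without covariates, and the procedure was tested on simulated data. The SE and 95% interval are those of that moderated fit. Nothing in the labels says that replicates came from separate cultures, so p-values reflect only how these samples vary, possibly from technical sources. No array repeated another (identical values in at most 3.63% of genes). The members, the lists and the tests were chosen with earlier results of these data known, so no list was tested as a set. Named genes were the members, up to 6 genes per list that passed (or the 2 with the largest change), the 5 nearest to Pmepa1, 4 OPC markers and any marker that passed, with later additions said in place. Replicate numbers in the labels were not taken as pairs. Same-numbered samples had correlations of their deviations from the group means of 0.0278, 0.0217 and 0.0109. Differently numbered samples had -0.0213 to -0.0016. All of these are small, and they do not settle whether the samples were paired. Alternatives were median centring, filters on dim genes, a replicate block, leaving out each array, trend and robust eBayes, and testing every probe set.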

Additional observations from a re-analysis of the deposited data

How the results depend on the processing

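Pmepa1 passed in all 14 alternatives (log2 change 0.795 to 0.88, adjusted p at most 0.0127, limma), and the count of members called higher was 1 in each, apart from the 2 filters on dim genes, where Tgif1 passed too and the count was 2. The count of members called lower was 0 in each. Of the 29 named genes, 26 kept their direction in every alternative. Tgfb1 turned to 0.063 without control 2 and 0.098 without fibrinogen 2, Sox10 to 0.013 without fibrinogen 2, and Tgfb3 to -0.0033 with median centring over genes, -0.017 with median centring over all probe sets, -0.072 without control 3 and -0.093 without fibrinogen 1. Over the fits without 1 array the log2 change ran from -0.16 to 0.098 for Tgfb1, -0.093 to 0.097 for Tgfb3 and -0.10 to 0.013 for Sox10. With 1 array left out, genes called higher ran from 96 to 263 and lower from 55 to 173, members called higher stayed at 1, and the counts called higher ran from 1 to 2 for latency genes, 0 to 1 for other receptors, 0 to 1 for Smads and regulators, and 1 to 3 for targets.

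Both filters on dim genes, which test fewer genes, gave 2 members, 2 Smads and regulators, 3 targets, 1 other receptor and 1 other ligand or antagonist called higher. Median centring, in either form, robust eBayes, every probe set tested and the replicate block each left 1 latency gene higher (Bgn, not Itgb5), and an intensity trend gave 3 targets and 1 other receptor higher. Testing every probe set left 109 genes lower. Centring over all probe sets, chosen after seeing the data, gave 212 higher and 228 lower, in place of 252 and 180, and centring over genes gave 232 and 210. The first of these removed a shift of 0.027 between the groups. The cause of these differences was not tested.

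The replicate block gave 195 genes higher and 120 lower, with an adjusted p of 0.00445 for Pmepa1. Every sample correlated best with its own number, a hint from the data and not from the design. Of the named genes it ended the calls for Itgb5, Pdgfra and Cspg4 (adjusted p = 0.0951, 0.0770 and 0.0895, limma). Dim genes limit what can be seen: Tgfb1 was under the 95th percentile of the receptor genes, and Tgfb3 and Tgfbi were close to it, although all 7 members were above the receptor median of 4.03. Each member had 1 probe set, so no other could be tried.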
